A study of Mus musculus with 6 samples.

Results

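Cyclin D1, cyclin D2 and cyclin D3, encoded by Ccnd1, Ccnd2 and Ccnd3, and their kinase partners, encoded by Cdk4 and Cdk6, were followed across all 6 arrays of the series. Every probe set that the annotation of the array platform gives to 1 of these 5 genes alone was taken, whatever its values. There were 6 such probe sets among 12488, covering 4 of the 5 genes: 2 for Ccnd1, 1 for Ccnd2, 1 for Ccnd3 and 2 for Cdk4. A probe set is a set of short oligonucleotides designed against the same transcript. No probe set carried the symbol Cdk6, which was not analysed here. All 6 probe sets were bright enough to pass the filter on dim values that left 7453 probe sets for testing.

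The cells were NIH3T3 mouse fibroblasts, an immortalised line, and the arrays fell into 3 groups of 2. Cells of all groups carried the oncogenes c-myc and Ha-ras, which cooperate in transformation, stably under a Tet-off promoter, which doxycycline silences. All also made IRF-1hER at all times, a fusion of the interferon-response factor IRF-1 to an estrogen receptor part, which estradiol activates. In the estradiol group doxycycline was absent and estradiol, given as 1 mM in the labels, was present for 48 h. In the withdrawal group both agents were absent, a condition that the design uses to turn the oncogenes on. In the doxycycline group 2 µg/ml doxycycline was present to keep them off, although the title of its replicate 2 array also names E2 while its treatment entry does not. RNA came from an RNeasy extraction in replicate 1 of each group and from TRIzol in replicate 2. In its title the study calls cyclin D1 a gene lowered by IRF-1, so the question for these genes is whether the oncogenes and active IRF-1 moved them.

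D-type cyclins are unstable proteins that cells make when growth factors are present. Each binds CDK4 or CDK6, and the complexes phosphorylate the retinoblastoma protein, which frees E2F factors to switch on genes of DNA synthesis. In fibroblasts, Ras signalling through the ERK pathway is known to raise transcription of cyclin D1, while Myc is known to raise Ccnd2 and Cdk4 and has been reported to lower Ccnd1. Inhibitors of the INK4 family, such as the product of Cdkn2c, bind the kinases directly, and p21 and p27, products of Cdkn1a and Cdkn1b, act on the cyclin complexes.

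The promoter of Cdk4 is shown because Myc, the product of a transgene meant to be on without doxycycline, binds the E-box CACGTG. RefSeq's GRCm38.p6 table of promoters, each 300 bases long with 250 before and 50 after the start site, held 3 of the 5 genes: Ccnd3, Cdk4 and Cdk6. The window of Cdk4 is chr10:127063285-127063584, plus strand, and each E-box, which reads the same on both strands, is in capitals.
Cdk4: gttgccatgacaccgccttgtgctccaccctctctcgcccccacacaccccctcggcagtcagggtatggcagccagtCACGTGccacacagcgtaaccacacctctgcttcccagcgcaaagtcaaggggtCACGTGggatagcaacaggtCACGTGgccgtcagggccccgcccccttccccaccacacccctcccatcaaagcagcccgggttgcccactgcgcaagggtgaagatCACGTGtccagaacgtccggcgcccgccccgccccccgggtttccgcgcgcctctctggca
It held 4 E-boxes, whose first bases lay at -172, -118, -98 and -11 from the start site. At least 1 E-box stood in 7.15% of the 32851 promoters of the table, and 4 or more stood in 8 of them. The Cdk6 window held 1 E-box and the 2 windows of Ccnd3 held 0. The AP-1 motif TGANTCA, the E2F motif TTTNGCGC and the interferon-stimulated core GAAANNGAAA, searched on both strands with N as any base, occurred 0 times in the windows of Ccnd3, Cdk4 and Cdk6. They stood in 7.81%, 1.38% and 3.44% of all promoters.

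The arrays followed their group names only in part. Of 7453 probe sets, 16 differed at least 2-fold between estradiol replicate 1 and withdrawal replicate 1, while 920 did so between the arrays labelled withdrawal replicates 1 and 2, and 324 between withdrawal replicate 2 and doxycycline replicate 1. By this count the array labelled withdrawal replicate 2 was nearer to both doxycycline arrays than to any other array without doxycycline. A wrong label could not be checked from the files, and every comparison with the withdrawal group rests on that label. The Myc signal was 31.9 and 28.1 in the estradiol group, 25.7 and 118.5 after withdrawal and 62.3 and 49.6 with doxycycline. It was thus lower on 3 of the 4 arrays without doxycycline than on both with it. Those 3 signals lay near 29.0, the mean signal below which probe sets were left out. If the 1 Myc probe set reads the transgene, this goes against the labelled state. The labels do not say whether it does, so the state of the oncogenes was not checked by it. Of 12 fibroblast markers, 9 passed the filter, with Col1a2 between 3806.5 and 9197.1, while Vim, Lum and Fap lay below it. The summed signal of 6 leukocyte markers was 74.1 to 130.7 and that of 4 endothelial markers 39.9 to 84.7, against 15552 to 26706 for the fibroblast markers. The 5 epithelial markers summed to 144.6 to 223.1 and the 3 skeletal muscle markers to 108.4 to 219.2, and no marker of these lists was at 0 on all arrays.

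Ccnd1 was higher on all 4 arrays without doxycycline than on both arrays with it, in the probe set of the 2 that was brighter on average. The same held for 13.5% of all 7453 tested probe sets. The brighter Ccnd1 probe set had signals of 332.9 and 609 in the estradiol group, 370.8 and 227.2 after withdrawal and 148.6 and 135.7 with doxycycline. The 2 doxycycline arrays lay close together and below every other array, and estradiol replicate 2 was the highest. Taking the 4 arrays without doxycycline against the 2 with it, the log2 fold change was 1.18 (SE 0.31, 95% interval 0.47 to 1.89), which limma did not call (adjusted p = 0.354). An exact two-sided permutation test over the 6 arrays gave p = 0.0667, the smallest that 4 arrays against 2 allow. This p can be reached only where the groups do not overlap, so it restates that fact and adds no support. Groups without overlap in the other direction were found for 11.3% of all probe sets. The 4 arrays include estradiol replicate 1 and withdrawal replicate 1, the pair with the 16 differences, and whether these were separate cultures is not in the labels. The difference was positive within both replicate numbers, 1.09 in replicate 1 and 1.28 in replicate 2. As in any bulk RNA, more cells with the transcript and more transcript per cell cannot be told apart.

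**Figure D1:**
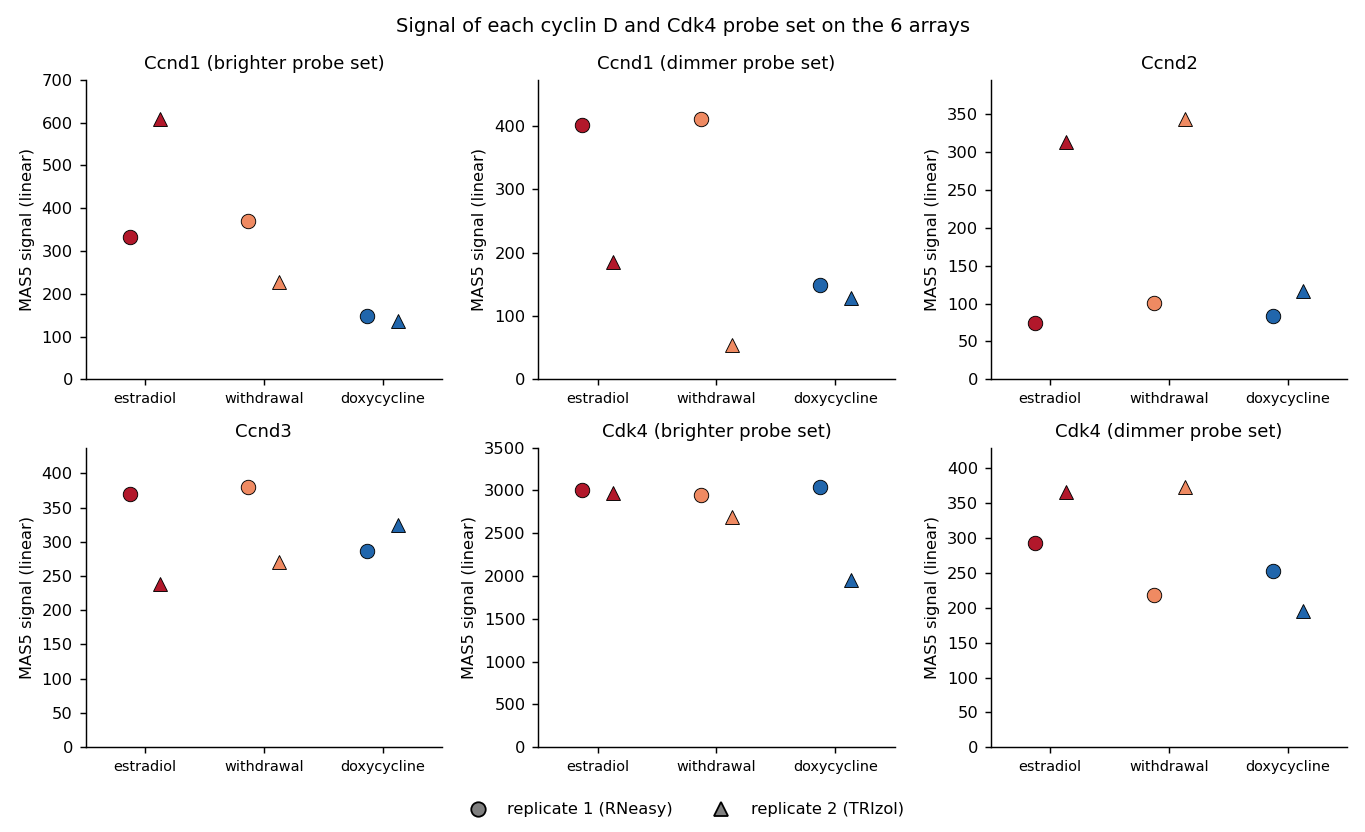
Each panel shows the linear MAS5 signal of 1 probe set (y axis, from 0) on the 6 arrays, by group (x axis), with circles for replicate 1 and triangles for replicate 2. The brighter Ccnd1 probe set lies between 227.2 and 609 on the 4 arrays without doxycycline and at 148.6 and 135.7 on those with it, while Ccnd2 stands above 300 only on replicate 2 of the estradiol and withdrawal groups.

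Split by group, withdrawal against doxycycline gave a log2 fold change of 0.89 in the brighter Ccnd1 probe set (SE 0.36, 95% interval 0.07 to 1.71, limma adjusted p = 0.925) and estradiol against doxycycline gave 1.47 (SE 0.36, 95% interval 0.66 to 2.29, limma adjusted p = 0.255). Both comparisons share the doxycycline arrays. For estradiol against withdrawal the value was 0.58 (SE 0.36, limma adjusted p = 1.00), with a 95% interval of -0.24 to 1.40. That interval holds 0. By replicate number the estradiol array was 0.14 below the withdrawal array in replicate 1 (log2 difference -0.14) and above it by 1.31 in replicate 2. The value was 0.26 without the array labelled withdrawal replicate 2, 0.90 without withdrawal replicate 1, 0.99 without estradiol replicate 1 and 0.18 without estradiol replicate 2.

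The dimmer Ccnd1 probe set gave another picture in replicate 2. Its signals were 401.1 and 185.6 in the estradiol group, 411.6 and 54.2 after withdrawal and 148.8 and 127.8 with doxycycline. Here the estradiol arrays lay above the doxycycline arrays, as for 27.0% of all probe sets. The withdrawal arrays, however, held both the highest and the lowest value of all. The log2 fold change of the 4 arrays against the doxycycline arrays was 0.53 (SE 0.59, 95% interval -0.82 to 1.88, limma adjusted p = 0.733). Replicate 1 alone gave 1.28 and replicate 2 alone -0.22. Leaving out the array labelled withdrawal replicate 2 gave 1.12, and leaving out withdrawal replicate 1 gave -0.06. Withdrawal against doxycycline gave 0.20 (95% interval -1.35 to 1.76), and it was -0.98 without withdrawal replicate 1 and 1.38 without withdrawal replicate 2. Estradiol against withdrawal gave 0.65 (95% interval -0.91 to 2.21), and -0.53 without withdrawal replicate 2. For estradiol against doxycycline the value was 0.85 (95% interval -0.70 to 2.41, limma adjusted p = 0.606), and it was positive within both replicate numbers, at 1.26 and 0.45.

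The 2 Ccnd1 probe sets therefore parted on specific arrays. The signal of the dimmer over that of the brighter probe set was 1.20 on estradiol replicate 1, 1.11 on withdrawal replicate 1 and 1.00 and 0.942 on the doxycycline arrays. On estradiol replicate 2 it was 0.305 and on withdrawal replicate 2 it was 0.239. The 4 other arrays thus agree to within a narrow band, and the replicate 2 arrays without doxycycline stand apart from them. Such a ratio shows unequal change of the probe sets, and does not tell which of them moved. On the log2(signal + 32) scale the difference between the probe sets ranged over 1.84 across the arrays. Among 1252 pairs of tested probe sets from 928 genes the median range was 0.90, and 93.8% of pairs had a smaller range than the Ccnd1 pair. The Cdk4 pair ranged over 0.83, and 42.7% of pairs had a smaller range.

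**Figure D2:**
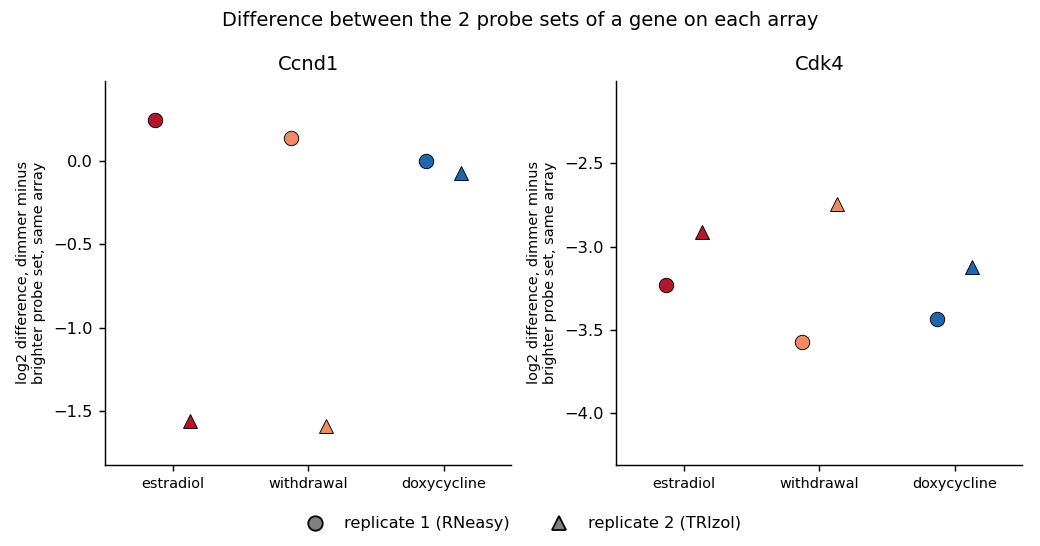
The y axis shows the difference in log2(signal + 32) between the dimmer and the brighter probe set of Ccnd1 (left) and Cdk4 (right) on the same array, by group, with circles for replicate 1 and triangles for replicate 2. For Ccnd1 the values lie between -0.07 and 0.25 on 4 arrays and at -1.56 and -1.59 on replicate 2 of the estradiol and withdrawal groups.

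Ccnd2 was high on the same 2 arrays on which the Ccnd1 probe sets parted. Its signals were 74.6 and 314.1 in the estradiol group, 100.8 and 344.1 after withdrawal and 83.4 and 116.4 with doxycycline. Replicate 1 of all 3 groups and both doxycycline arrays lay between 74.6 and 116.4, so the groups overlap. The log2 fold change of the 4 arrays without doxycycline was 0.66 (SE 0.53, 95% interval -0.56 to 1.88, limma adjusted p = 0.626). Within replicate 1 it was 0.04 and within replicate 2 it was 1.28. Estradiol against withdrawal gave -0.22 (SE 0.61, 95% interval -1.63 to 1.19, limma adjusted p = 1.00), and replicates 1 and 2 alone gave -0.32 and -0.12. Withdrawal against doxycycline gave 0.77 (95% interval -0.64 to 2.18), of which replicate 1 gave 0.20 and replicate 2 gave 1.34. Estradiol against doxycycline gave 0.55 (95% interval -0.86 to 1.96), with replicate 1 at -0.11 and replicate 2 at 1.22.

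Whether the effect of absent doxycycline depended on the replicate number was tested with a model chosen after these values were seen. In it the estradiol and withdrawal arrays of a number counted as 1 group, beside 1 doxycycline array. Its residual spread thus comes only from differences between the estradiol and withdrawal arrays of the same number. Its SEs and intervals do not measure the spread among doxycycline arrays. For Ccnd2 the effect was larger in replicate 2 by 1.24 (SE 0.31, 95% interval 0.41 to 2.07), and limma did not call it (adjusted p = 0.298). Over all probe sets that model called 7, or 0.0939%, and 0 of the 6 cyclin D and Cdk4 probe sets. The difference was -1.50 for the dimmer Ccnd1 probe set (SE 0.80, adjusted p = 0.484) and 0.20 for the brighter one (SE 0.80, adjusted p = 0.932). Each replicate number had its own extraction method, so culture, extraction and any other difference between the numbers cannot be told apart.

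Ccnd3 had the narrowest range of the cyclins. Its signals were 370.2 and 238.3 in the estradiol group, 380.4 and 270 after withdrawal and 287 and 324.2 with doxycycline. The doxycycline arrays lay between the replicate 1 and replicate 2 arrays of the other groups. The highest signal was 1.60 times the lowest, against 4.49 and 7.59 times for the Ccnd1 probe sets and 4.61 times for Ccnd2. For the 4 arrays without doxycycline the log2 fold change was 0.02 (95% interval -0.60 to 0.64, limma adjusted p = 0.987). Replicate 1 gave 0.35 and replicate 2 gave -0.32. Estradiol against withdrawal gave -0.10 (95% interval -0.81 to 0.62, limma adjusted p = 1.00). Withdrawal against doxycycline gave 0.07 (95% interval -0.65 to 0.78) and estradiol against doxycycline -0.03 (95% interval -0.75 to 0.68). With 2 arrays a group, differences of any size within these intervals remain possible.

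Cdk4, the kinase partner, stayed within narrower limits than Ccnd1 and Ccnd2. Signals of its brighter probe set were 3009 and 2974.4 in the estradiol group, 2944.9 and 2685.6 after withdrawal and 3044.1 and 1951.3 with doxycycline. The sole low value was doxycycline replicate 2, the array whose title also names E2, and doxycycline replicate 1 was the highest of all. The log2 fold change of the 4 arrays without doxycycline was 0.25 (SE 0.26, 95% interval -0.35 to 0.85, limma adjusted p = 0.721), with -0.03 for replicate 1 alone and 0.53 for replicate 2 alone. It was -0.07 when doxycycline replicate 2 was left out. The dimmer probe set had 292.3 and 366.8 in the estradiol group, 218.7 and 373.7 after withdrawal and 252.7 and 195.8 with doxycycline. Its 2 highest values were again replicate 2 of the groups without doxycycline. Its log2 fold change was 0.41 (SE 0.28, 95% interval -0.23 to 1.05, limma adjusted p = 0.575), and replicates 1 and 2 alone gave 0.00 and 0.82. Estradiol against withdrawal gave 0.09 in the brighter probe set (95% interval -0.61 to 0.78) and 0.17 in the dimmer one (95% interval -0.56 to 0.91). Withdrawal against doxycycline gave 0.20 and 0.32, and estradiol against doxycycline gave 0.29 and 0.50, and every interval held 0.

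**Figure D3:**
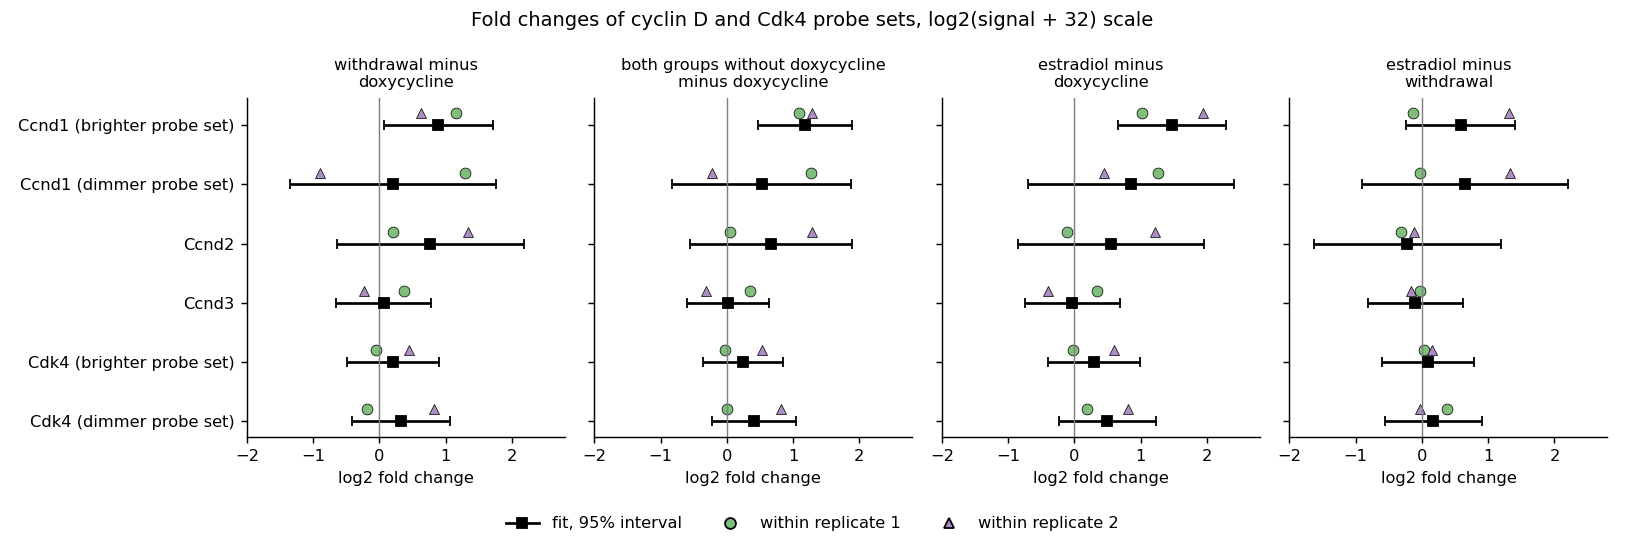
Log2 fold changes (x axis, log2(signal + 32) scale) of the 6 probe sets in 4 comparisons, with squares and bars for the limma estimate and its 95% interval, circles for the difference within replicate 1 and triangles for that within replicate 2. The interval of the brighter Ccnd1 probe set lies above 0 in the 3 comparisons with doxycycline, and every other interval holds 0.

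Set against all probe sets, limma called 0 of the 6 at an adjusted p under 0.05 in each of the 4 comparisons, and it called 0% of the 7453. At an unadjusted p under 0.05, 1 of the 6, the brighter Ccnd1 probe set, was counted for withdrawal against doxycycline (4.37% of all probe sets), for estradiol against doxycycline (14.0%) and for the 4 arrays without doxycycline against those with it (12.4%). For estradiol against withdrawal 0 of the 6 were counted (0.698%). The groups did not overlap, with higher values after withdrawal than with doxycycline, for 1 of the 6 (16.9% of all). For estradiol above doxycycline this held for 3 of the 6, both Ccnd1 probe sets and the dimmer of Cdk4 (27.0% of all). For the 4 arrays without doxycycline it held for 1 (13.5%), and for estradiol above withdrawal for 1, the brighter Cdk4 probe set (11.6%). Lower values without overlap were found for 0 of the 6 in each comparison, against 15.0% of all for withdrawal below doxycycline, 24.7% for estradiol below doxycycline, 11.3% for the 4 arrays below doxycycline and 10.3% for estradiol below withdrawal. In the case of estradiol against withdrawal, where the title of the series names a decrease of cyclin D1, neither Ccnd1 probe set was lower on both estradiol arrays than on both withdrawal arrays. Whether IRF-1 was active on the estradiol arrays was not checked. The replicate 1 arrays of this comparison are the pair with the 16 differences of at least 2-fold. The values are RNA signals, and no protein was measured on these arrays.

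Downstream of the kinases, E2F target genes of the G1/S transition had a higher median on 3 of the 4 arrays without doxycycline than on those with it, though single members differed from it. Of 20 listed genes 16 were tested, with the brightest probe set of each. For the 4 arrays without doxycycline against those with it, 16 of 16 had positive log2 fold changes, with a median of 0.95 beside 0.01 over all probe sets, and 0 passed the test. Tk1, the thymidine kinase, had signals of 1078.3 and 946.9 in the estradiol group, 1021.7 and 224.9 after withdrawal and 202.1 and 123.4 with doxycycline. Pcna, the sliding clamp, differed by 1.46 (SE 0.33, limma adjusted p = 0.354) and the licensing factor Cdt1 by 1.42 (SE 0.42, limma adjusted p = 0.354). Relative to each gene's mean over the arrays, the median of the list was 0.64 and 0.68 on the estradiol arrays, 0.57 and -0.71 on the withdrawal arrays and -0.30 and -1.02 on the doxycycline arrays. On the same scale the brighter Ccnd1 probe set stood at 0.28 and 1.09, 0.42 and -0.21, and -0.74 and -0.84. On withdrawal replicate 2 the brighter Ccnd1 probe set was thus above both doxycycline arrays and the dimmer one, at -1.33 against -0.26 and -0.44, below both. On that array the median of the E2F targets lay between the doxycycline arrays. Tk1, Pcna and Rrm1, a subunit of ribonucleotide reductase, were above both. The cyclin genes Ccna2 and Ccne1 and the DNA polymerase gene Pola1 were below both.

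For withdrawal against doxycycline the E2F targets had a median of 0.72 with 16 of 16 higher, and 0.14 with 10 of 16 higher when withdrawal replicate 1 was left out. Without withdrawal replicate 2 the median was 1.27, without doxycycline replicate 1 it was 1.13, and without doxycycline replicate 2 it was 0.28. For estradiol against withdrawal the median was 0.70 with 15 of 16 higher, and 0.12 with 9 of 16 higher without withdrawal replicate 2, and 1.32 without withdrawal replicate 1. For estradiol against doxycycline it was 1.34 with 15 of 16 higher. In the comparison of the 4 arrays with the doxycycline arrays, the median was 0.62 without doxycycline replicate 2. Of 6 proliferation markers, 6 were higher in that comparison, with a median of 1.33 that was 0.87 without doxycycline replicate 2. Their summed signal was 1913.3 and 2120.8 with estradiol, 1739.8 and 764.9 after withdrawal and 716.5 and 339.6 with doxycycline. The summed fibroblast markers were lower on all 4 arrays without doxycycline, at 20507 and 15552 with estradiol, 20493 and 23728 after withdrawal and 26706 and 25474 with doxycycline. Bright genes such as Col1a1 and Col1a2 weigh most in this sum. Of the 9 tested fibroblast markers, 7 were lower and 2 higher on the 4 arrays (median -0.37, 0 passed). The 2 higher ones were Col5a1 (0.13) and S100a4 (0.04). The part of either in the Ccnd1 difference was not tested.

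**Figure D4:**
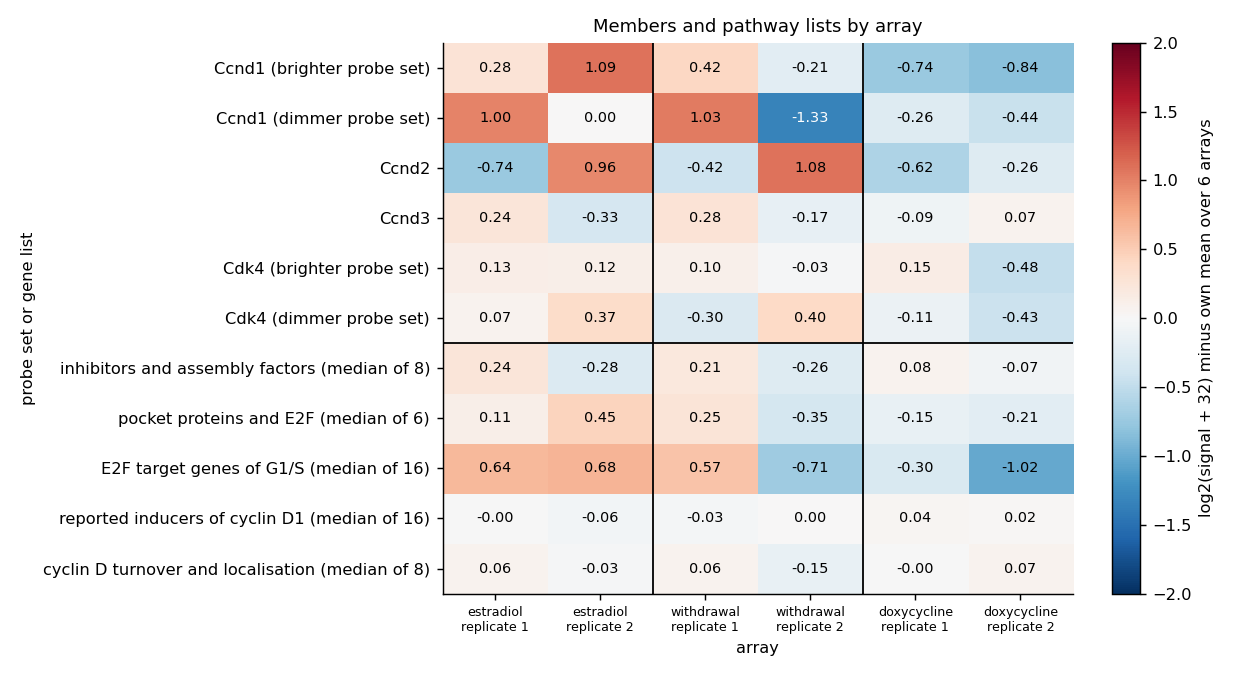
Each cell gives the log2(signal + 32) of a probe set, or the median of a gene list, minus its own mean over the 6 arrays, for the 6 cyclin D and Cdk4 probe sets (above the line) and 5 pathway lists (below it), with arrays as columns. The E2F targets are at 0.64, 0.68 and 0.57 on 3 of the arrays without doxycycline and at -0.71 on withdrawal replicate 2, while Ccnd2 stands at 0.96 and 1.08 on replicate 2 of the estradiol and withdrawal groups.

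The pocket proteins and E2F factors themselves were mixed. Of 13 listed, 6 were tested and 4 were higher on the 4 arrays without doxycycline (median 0.26, 0 passed). The median was 0.08 without withdrawal replicate 1 and 0.44 without withdrawal replicate 2. Tfdp1, the dimerisation partner of E2F, had signals of 677.6 and 804.2 with estradiol, 740.1 and 505.2 after withdrawal and 301.4 and 210.8 with doxycycline. All 4 arrays without doxycycline lay above both others, as for the brighter Ccnd1 probe set and 13.5% of all probe sets. The log2 fold change was 1.31 (SE 0.27, limma adjusted p = 0.354). E2f8, a repressor of the family, differed by 0.83 (SE 0.36) and E2f5 by -0.38 (SE 0.23). The E2f8 signal was 5.4 on doxycycline replicate 2 and 22.5 on withdrawal replicate 2, both below the filter's 29.0. For estradiol against withdrawal 5 of the 6 were higher, with a median of 0.31. It was 0.03 with 4 of 6 higher when withdrawal replicate 2 was left out, 0.61 when withdrawal replicate 1 was and 0.16 when estradiol replicate 2 was.

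Inhibitors of the complexes and their assembly factors were divided, with 4 of 8 tested genes higher and 4 lower without doxycycline (median 0.02, 0 passed, 12 listed). Cdkn1b, which encodes p27, had signals of 29.6 and 29.3 with estradiol, 32.7 and 25.8 after withdrawal and 113.7 and 55.8 with doxycycline. The signals without doxycycline lay near 29.0, the mean signal below which probe sets were left out. The groups did not overlap, as was so for 11.3% of all probe sets in that direction. The log2 fold change was -0.88 (SE 0.26, limma adjusted p = 0.354). Cdkn2c, the INK4 inhibitor p18, had 508.2 and 250.7 with estradiol, 556.5 and 417.2 after withdrawal and 773.5 and 752.3 with doxycycline. It too was lower on every array without doxycycline (-0.83, SE 0.31, limma adjusted p = 0.370). Cdk7, the kinase that activates other CDKs, differed by 0.45 (SE 0.30). The counts of 4 and 4 held without each array in turn, with medians of -0.09 to 0.13. For estradiol against withdrawal 6 of the 8 were higher, with a median of 0.05. That direction turned with single arrays: 1 of 8 was higher without withdrawal replicate 2 (median -0.16) and 3 of 8 without estradiol replicate 1 (-0.13). Without estradiol replicate 2 it was 8 of 8 (0.28), and without withdrawal replicate 1 it was 7 of 8 (0.34). The chaperone partner Cdc37, which helps CDK4 fold, differed by 0.54 (SE 0.33), Cdkn2c by -0.40 (SE 0.36) and Cdkn1a by 0.40 (SE 0.58).

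Factors reported to induce cyclin D1 transcription had medians close to 0. Of 19 listed, 16 were tested, and 6 were higher and 10 lower without doxycycline (median -0.09, 0 passed). Fosl1, an AP-1 subunit induced by ERK signalling, had signals of 136.8 and 222.3 with estradiol, 139.5 and 99.5 after withdrawal and 80.8 and 65.4 with doxycycline. Its 4 arrays without doxycycline lay above the others, as for 13.5% of all probe sets. Estradiol replicate 2 was highest, as for the brighter Ccnd1 probe set, while the dimmer Ccnd1 probe set was highest on withdrawal replicate 1. The log2 fold change of Fosl1 was 0.75 (SE 0.26, limma adjusted p = 0.364). The zinc finger factor Klf5 differed by 0.47 (SE 0.25) and Jun by -0.46 (SE 0.25). Between estradiol and withdrawal 8 were higher and 8 lower (median -0.02). Stat3, a cytokine-activated factor, differed by -0.70 (SE 0.40), Fosl1 by 0.46 (SE 0.30) and Klf5 by 0.38 (SE 0.29).

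Genes of cyclin D turnover and localisation also had a median close to 0. Of 12 listed, 8 were tested, and 3 were higher and 5 lower without doxycycline (median -0.07, 0 passed). Leaving out doxycycline replicate 2 turned this to 5 higher and 3 lower, with a median of 0.08. Xpo1, the nuclear export receptor that carries cyclin D1 out of the nucleus, had signals of 205.3 and 246.9 with estradiol, 180.5 and 131.3 after withdrawal and 105.7 and 117.9 with doxycycline. These groups did not overlap, as was so for 13.5% of all probe sets in that direction (log2 fold change 0.61, SE 0.23, limma adjusted p = 0.370). Usp2, a deubiquitinase reported to stabilise cyclin D1, differed by -0.59 (SE 0.36) and Ddb1, an adaptor of CUL4 ubiquitin ligases, by 0.26 (SE 0.27). Among 12 other cyclins and kinases of the same families, 6 were higher and 6 lower (median 0.02). The mitotic cyclin gene Ccnf differed by 1.08 (SE 0.37) and the p53 target Ccng1 by 0.85 (SE 0.25), and neither passed.

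Genes with the most similar profile were found by the root mean square difference of log2 values, each centred on its own mean, over the 6 arrays and 6733 named probe sets of other genes. For the brighter Ccnd1 probe set the closest was Rbm38, an RNA-binding protein, at 0.12. It had signals of 159.8 and 287.2 with estradiol, 157.9 and 97.4 after withdrawal and 66.1 and 70.4 with doxycycline. Rbm14, a coactivator that binds RNA, followed at 0.12 and Slc29a1, a nucleoside transporter, at 0.13, and 151 probe sets lay within 0.3. For Ccnd2 the closest was Iqgap1, a scaffold of the actin cytoskeleton, at 0.18, with 223.1 and 588.5, 253.4 and 606.8, and 179.7 and 229.2 in the same group order. Noct, a circadian phosphatase, followed at 0.21. Dppa2, also at 0.21, had signals of 10.8 and 59.1, 10.9 and 91.9, and 14 and 24.4. It lay below the filter's 29.0 on 4 arrays and passed through the 2 on which Ccnd2 is high, so its likeness follows in part from the filter. In all, 12 probe sets lay within 0.3. All values come from the same 6 arrays, so the likeness is a description. Ccnd3 and Cdk4 ranged over less than 1 log2 unit in their brightest probe sets, and no like genes are named for them.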

How the data were processed

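Biotin-labelled cRNA from total RNA of 6 samples was hybridised to 1-colour Affymetrix arrays, per the labels' protocols. The deposited values are MAS5 signals, an intensity per probe set on a linear scale, per the submitters' processing notes. Sources used here do not give the MAS5 version or settings. No genome build was named for the array values.

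Arrays were scaled to a common mean trimmed by 2% at each end (factors 0.999968 to 1.00006), and log2(signal + 32) was taken, which understates changes of dim probe sets. The 66 control probe sets and the lowest 40% of the rest were left out. The 7453 others were fitted with limma 3.58.1 (R 4.3.3), with 1 mean per group and a prior variance that follows intensity. The fit had 3 residual and 5.23 prior degrees of freedom. Two-sided p-values were adjusted by the Benjamini-Hochberg method over all tested probe sets, and the script was tested on simulated data. The number of arrays limits the precision. Symbols came from the platform annotation, in which 10833 probe sets had 1 symbol, 396 several and 1193 none. Entrez identifiers updated 0 symbols.

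The named genes are all probe sets of the 5 genes, from each pathway list and comparison up to 3 members of smallest unadjusted p, and 3 genes of like profile per member ranging over at least 1 log2 unit. E2F targets above or below both doxycycline arrays on withdrawal replicate 2 are also named. The members and lists were chosen with earlier results of these data known. Alternatives were other pseudocounts, filters and normalization, no trend, the replicate number as a block, leaving out each array, and fitting only the groups compared. Per the labels, all replicate 1 samples shared an extraction method and all replicate 2 samples another, so the number marks a batch. Deviations from the group means correlated between same-numbered arrays at 0.449 for estradiol and withdrawal, -0.0284 for estradiol and doxycycline and -0.00727 for withdrawal and doxycycline. Nothing in the labels says that replicates came from separate cultures. The p-values then cover only the spread among these arrays, and it may be technical.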

Additional observations from a re-analysis of the deposited data

How the results depend on the processing

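The brighter Ccnd1 probe set kept a positive log2 fold change against doxycycline under every alternative tried. Its values were 0.87 to 1.39 for the 4 arrays without doxycycline, 1.07 to 1.88 for estradiol and 0.57 to 1.21 for withdrawal. The adjusted p for the 4 arrays was 0.0504 without withdrawal replicate 2, within a range of 0.0504 to 0.958 over the alternatives. With the replicate number as a block, its value for the 4 arrays was 1.18 (adjusted p = 0.276), and the block changed no call. Under all alternatives 0 of the 6 probe sets were called. Over all tested probe sets the fit to all 6 arrays called 0%. Leaving out 1 array, whereby the lone array left in its group is assumed to vary like the other groups, called 0 to 0.349% for withdrawal against doxycycline, the most without doxycycline replicate 1. It called 0 to 0.228% for estradiol against withdrawal, the most without withdrawal replicate 1. For estradiol against doxycycline it called 0 to 1.82%, with 1.82% when withdrawal replicate 2 was left out, 1.76% when it was withdrawal replicate 1 and 0.335% when it was doxycycline replicate 1. For the 4 arrays it called 0 to 2.44%, with 2.44% without withdrawal replicate 2 and 0.456% without doxycycline replicate 1. Fitting only the 2 groups called 1.72% for estradiol against doxycycline. The cause of these changes was not tested.

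Some values changed sign, all with 95% intervals that held 0. With quantile normalization Ccnd3 gave -0.00373 for the 4 arrays, against 0.02. Leaving out 1 array gave, for the 4 arrays, -0.0633 to 1.12 for the dimmer Ccnd1 probe set, -0.13 to 0.16 for Ccnd3 and -0.0689 to 0.56 for the brighter Cdk4 probe set. For estradiol against doxycycline it gave -0.30 to 1.40 for Ccnd2, -0.32 to 0.25 for Ccnd3 and -0.0247 to 0.61 for the brighter Cdk4 probe set. For estradiol against withdrawal it gave -0.53 to 1.83 for the dimmer Ccnd1 probe set, -1.07 to 0.63 for Ccnd2, -0.38 to 0.19 for Ccnd3 and -0.17 to 0.52 for the dimmer Cdk4 probe set. For withdrawal against doxycycline it gave -0.98 to 1.38 for the dimmer Ccnd1 probe set, -0.16 to 0.29 for Ccnd3, -0.11 to 0.52 for the brighter and -0.0227 to 0.67 for the dimmer Cdk4 probe set. With 2 arrays a group, 1 array decides these signs.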
